A study of Homo sapiens with 18 samples.

Results

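The anaphase-promoting complex, or APC/C, was described here through 10 genes of the 20705 in the count table: the subunits ANAPC1, ANAPC7, CDC16, CDC23 and CDC27, the coactivators CDC20 and FZR1, the ubiquitin-conjugating enzymes UBE2C and UBE2S, and the inhibitor FBXO5. They were chosen by name as parts and regulators of the complex and not by a rule on their values, though with earlier results of these data known. Each has a row in the table. The RNA came from CHL1 and A375, established human melanoma cell lines, in 9 groups of 2 replicates (18 libraries). The labels give the genotype as WT for all groups. The protocol speaks of 2 replicates grown for each condition but does not say how they were kept apart, so p-values measure the spread between these samples, which may be technical.

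CHL1 cells (wild-type BRAF and NRAS, mutant p53) were grown in DMEM and received DMSO alone for 72 hours (control), 1 μM palbociclib for 72 hours or for 6 days (CDK4/6i), or 500 nM GSK3326595 for 72 hours (PRMT5i). A375 cells (mutant BRAF, wild-type p53) were grown in RPMI-1640 and had the same 4 groups and also a control at 6 days. The 6-day A375 control received DMSO for 6 days, per the study's methods. The A375 PRMT5i libraries carry the abbreviation CTX in their names, which the sources used here do not explain, and their treatment label (PRMT5 inhibition) was followed. Palbociclib inhibits CDK4 and CDK6, kinases that push cells towards DNA replication, and GSK3326595 blocks the arginine methyltransferase PRMT5. Library names place the CHL1 samples and the 6-day A375 samples in the same set and the 72-hour A375 samples in another.

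The APC/C is a ubiquitin ligase that ends mitosis by marking securin and mitotic cyclins for destruction by the proteasome. CDC20 directs it to these substrates in mitosis, FZR1 (also called CDH1) takes over from mitotic exit into the next gap phase, and FBXO5 (EMI1) holds it off while DNA is copied. UBE2C places the initial ubiquitin on a substrate and UBE2S lengthens the chain. ANAPC1 is the large scaffold, while ANAPC7, CDC16, CDC23 and CDC27 are built of TPR repeats and form the lobe on which coactivators dock. CDC20, UBE2C and FBXO5 are known as genes whose mRNA follows the cell cycle, whereas most core subunits are expressed throughout it.

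CDC20 and FBXO5 fell after CDK4/6 inhibition in A375 cells. Their promoters are shown because sites with the letters of the CHR motif and the CCAAT box lie close to a RefSeq start of each. Both motifs are known from promoters of mitotic genes. These 2 promoters were chosen after the matches had been seen. The 180 bases directly before the RefSeq start are given 5′ to 3′ along the gene (GRCh38.p14, chr1:43358801-43358980 on the plus strand for CDC20 and chr6:152983042-152983221 on the minus strand for FBXO5, which has 2 RefSeq starts), and capitals mark TTTGAA or CCAAT on either strand.
CDC20: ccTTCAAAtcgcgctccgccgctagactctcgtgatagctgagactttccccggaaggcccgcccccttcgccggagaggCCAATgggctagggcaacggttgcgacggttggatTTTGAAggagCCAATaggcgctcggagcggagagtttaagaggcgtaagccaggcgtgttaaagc
FBXO5: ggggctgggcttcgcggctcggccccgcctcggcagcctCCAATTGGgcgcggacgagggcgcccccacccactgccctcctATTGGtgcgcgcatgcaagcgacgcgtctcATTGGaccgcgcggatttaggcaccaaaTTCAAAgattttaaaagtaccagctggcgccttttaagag

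In CDC20 the letters TTTGAA begin 65 bases before the start, with CCAAT beginning 55 and 100 bases before it, and on the other strand TTTGAA lies 178 bases before it. In FBXO5 the TTTGAA lies on the other strand, 40 bases before the start, and CCAAT was found 4 times, the matches at 141 and 138 bases overlapping each other. A RefSeq promoter entry was matched for 9 of the 10 members, all but UBE2C. Within 250 bases before a start, TTTGAA was found in 4 members (CDC20, FBXO5, ANAPC7 and FZR1) and in 13.3% of all 35116 promoter entries. The E2F letters TTTNNCGC were found in 3 members (CDC23, ANAPC7 and CDC16) and in 5.92% of entries, and CCAAT in 6 members and in 32.0% of entries. FZR1 and FBXO5, with 2 entries each, counted as members if either entry matched, while the percentages are over single entries. These matches are a description of letters, and binding was not measured.

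Library totals ranged from 16213475 to 37424081 counts with a median of 27906170.5. Each member was covered by at least 232 counts in every library (the lowest were FBXO5 and UBE2S), and all 10 reached 1 CPM in 2 or more libraries. CPM are counts scaled by library size, with TMM factors between libraries. Of the 8 melanoma markers listed, 6 had a row, with MITF at 63.8 to 144 CPM in CHL1 and 81.3 to 211 CPM in A375, while PMEL reached at most 1.83 CPM in CHL1 and 3.25 CPM in A375, and DCT was found in CHL1 (36.3 to 142 CPM) but was between 0 and 1.79 CPM in A375; SOX10 and MLANA were not analysed here. The leukocyte gene PTPRC was at 7.41 and 7.77 CPM in the CHL1 controls, at 16.7 and 16.8 CPM in the 6-day CHL1 CDK4/6i libraries and at most 0.588 CPM in A375, the 3 epithelial genes with a row summed to at most 12.1 CPM in any library, and the endothelial genes VWF and KDR summed to 19.7 and 34.8 CPM in the 6-day A375 CDK4/6i libraries and at most 9.64 CPM elsewhere. The part of other cells in the results below was not tested.

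The libraries differed in how counts depended on the GC content of transcripts, and this touches several results on the members, whose own GC content ranged from 34.2% (FBXO5) and 36.8% (CDC27) to 57.9% (CDC20) and 63.8% (FZR1). The difference between the most GC-rich 10% and the most GC-poor 10% of genes, as a mean log2 deviation from the median library of the cell line, was -2.15 and -1.10 for the 6-day A375 controls and -2.25 and -1.83 for PRMT5i-treated CHL1 cells. In the other 14 libraries it lay between -0.33 and 0.57. The treatment comparisons that rest on those 4 libraries are therefore given also with a GC correction, a smooth curve per library entered as an offset. Whether the trend is technical or belongs to the cells cannot be told apart here, because in each case it covers a whole group.

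**Figure D1:**
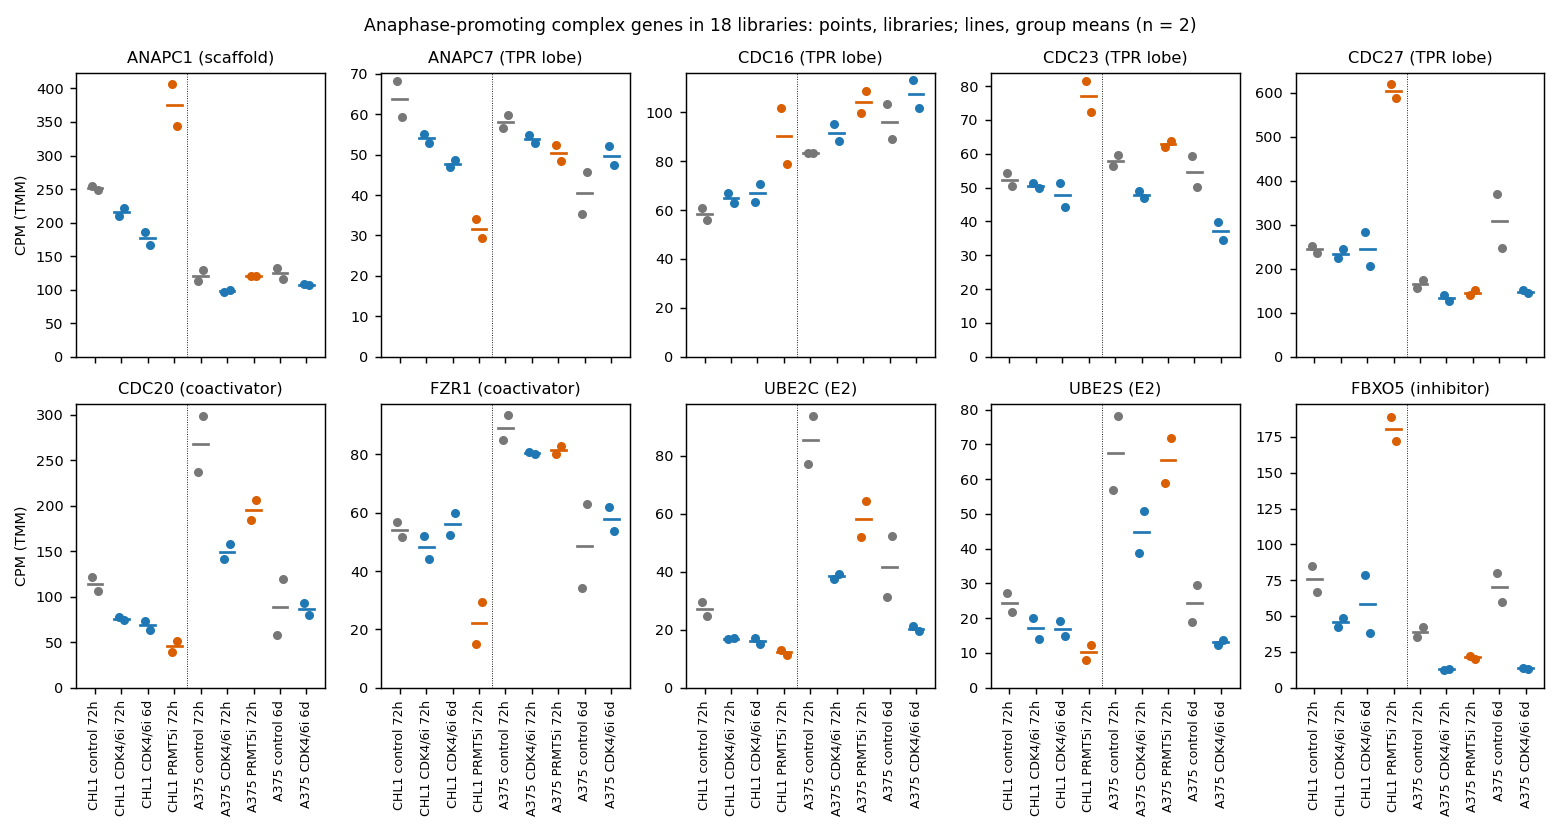
CPM of the 10 members in all 18 libraries, by group (grey, control; blue, CDK4/6i; orange, PRMT5i; the dotted line parts CHL1 from A375). Points are libraries and lines are group means of 2. FBXO5 sits between 12.3 and 13.9 CPM in the 4 A375 CDK4/6i libraries and between 172 and 189 CPM in the CHL1 PRMT5i libraries, while CDC20 and UBE2C are highest in the 72-hour A375 controls.

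Among the members, CDC20 had the highest level per transcript length in the 72-hour controls of both lines, at 63.9 CPM per kb in CHL1 and 151 CPM per kb in A375 (means of 2, using the longest annotated transcript). In CHL1 it was followed by CDC27 at 41.9 CPM per kb, and then by ANAPC1, UBE2C and FBXO5 at 32.4, 29.7 and 29.0 CPM per kb, whose library ranges overlapped. FZR1 and UBE2S were lowest in CHL1, at 10.5 and 9.57 CPM per kb, and their ranges overlapped too. In A375, UBE2C came second at 93.6 CPM per kb, and FBXO5 was lowest at 14.8 CPM per kb, a level whose range overlapped that of ANAPC1 at 15.6 CPM per kb. With the merged length of all exons instead, CDC20 remained highest in both lines and the lowest were FZR1 in CHL1 and ANAPC1 in A375. In the 6-day A375 controls, one of the groups with the GC trend, CDC27 (53.0 CPM per kb) and CDC20 (49.9 CPM per kb) overlapped. Reads from near-identical copies may enter some rows, since RefSeq lists 11 pseudogene symbols for CDC27, 6 for ANAPC1, 5 for UBE2C, 2 for UBE2S and 1 for CDC20, and levels of these members are uncertain to that extent. The only such copy with a row of its own, ANAPC1P1, had 0 to 28 counts.

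CDK4/6 inhibition for 72 hours lowered the inhibitor FBXO5, the conjugating enzyme UBE2C and the coactivator CDC20 in A375, and no member rose. These 3 of 10 members were below control at an adjusted p under 0.05 (edgeR's quasi-likelihood test with Benjamini-Hochberg adjustment over all genes), where 7.11% of all genes fell and 6.22% rose. None of the 5 subunits passed. In RNA from whole cultures, fewer cells in a phase of the cycle and less RNA per cell cannot be told apart.

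FBXO5 (chr6:153291654-153304714, GRCh37, minus strand) was at 35.0 and 42.3 CPM in the A375 controls and at 12.3 and 13.2 CPM after CDK4/6i. Every treated library lay far below both controls, a 3.16-fold lower level (log2 fold change -1.66 ± 0.20 SE, adjusted p = 7.4e-05). UBE2C (chr20:44441215-44445596, plus strand) was at 77.3 and 93.8 CPM in the controls and at 37.5 and 39.2 CPM in the treated libraries, again without overlap. It was 2.32-fold lower (log2 fold change -1.21 ± 0.23, adjusted p = 0.0027). CDC20 (chr1:43824652-43828874, plus strand) was at 237 and 299 CPM in the controls and at 141 and 158 CPM after treatment. It was 1.87-fold lower (log2 fold change -0.90 ± 0.27, adjusted p = 0.037), with no overlap of the groups.

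UBE2S (chr19:55911113-55919156, minus strand), the chain-elongating partner of UBE2C, had a log2 fold change of -0.65 ± 0.24 that did not pass (adjusted p = 0.082), although its 2 treated libraries (38.6 and 50.9 CPM) lay below the controls (57.0 and 78.1 CPM). The subunits had log2 fold changes from -0.36 (CDC27 and ANAPC1) to 0.08 (CDC16), and FZR1 -0.21. Leaving out any 1 of the 4 libraries kept FBXO5 and UBE2C past the threshold but not CDC20, whose log2 fold change was then between -1.05 and -0.70. The spread in this fit was estimated from all 10 A375 libraries, including the 6-day controls whose replicates lay apart. With only the 6 libraries of 72 hours 7 members passed: also ANAPC1, CDC23, CDC27 and UBE2S, all lower. In that narrower fit 3049 of all 20705 genes rose and 3375 fell.

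After 6 days in A375, FBXO5, UBE2C, UBE2S, CDC27 and CDC23 were lower than in the 6-day controls. Which of them fell furthest depended on the fit: FBXO5 with these controls, UBE2S (by 1.49 on the log2 scale, beside 1.47 for FBXO5) after GC correction, and UBE2S (by 2.42) against the 72-hour controls. These 5 of 10 members passed, all downwards, against 21.3% of all genes down and 21.8% up. CDC20 did not pass in this comparison, and its controls stood far apart. The 6-day controls carry the GC trend, and CDC23, UBE2C, UBE2S and FBXO5 were the members that passed with these controls, after GC correction and against the 72-hour controls alike. Against the 72-hour controls, however, drug, time and library set cannot be told apart. The control groups themselves differed: at 72 hours and 6 days UBE2S had means of 67.6 and 24.3 CPM, and FBXO5 38.7 and 70.1 CPM.

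FBXO5 was at 80.3 and 60.0 CPM in the 6-day controls and at 13.9 and 12.8 CPM in the treated libraries. It was 5.25-fold lower (log2 fold change -2.39 ± 0.20, adjusted p = 2.7e-06), and -1.47 ± 0.14 on the log2 scale after GC correction. UBE2C was at 31.1 and 52.3 CPM in the controls and 21.2 and 19.6 CPM after treatment, a 2.06-fold lower level (log2 fold change -1.04 ± 0.23, adjusted p = 0.0022). With GC correction its log2 fold change was -1.43 ± 0.18, and against the 72-hour controls -2.11 ± 0.24.

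UBE2S went from 18.9 and 29.6 CPM to 12.3 and 13.8 CPM, so that both treated libraries lay below both controls. The difference was 1.87-fold (log2 fold change -0.91 ± 0.24, adjusted p = 0.0072), and -1.49 ± 0.19 on the log2 scale after GC correction. CDC23 (chr5:137523339-137549032, minus strand), a TPR subunit, was at 59.3 and 50.2 CPM in the controls and 39.7 and 34.5 CPM in the treated cells. It was 1.47-fold lower (log2 fold change -0.56 ± 0.17, adjusted p = 0.014; -0.48 ± 0.13 after GC correction).

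CDC27 (chr17:45195069-45266788, minus strand), the subunit with the lowest GC content, was at 371 and 248 CPM in the 6-day controls, against 156 and 174 CPM in the 72-hour controls, and at 152 and 144 CPM after 6 days of CDK4/6i. The treated level was thus lower than the 6-day controls (log2 fold change -1.06 ± 0.19, adjusted p = 6.0e-04) but close to the 72-hour controls (log2 fold change -0.20 ± 0.19, adjusted p = 0.47). After GC correction CDC27 missed the threshold (log2 fold change -0.37 ± 0.14, adjusted p = 0.054). CDC20 was at 57.5 and 119.7 CPM in the 6-day controls, below both 72-hour controls, and at 93.1 and 79.8 CPM in the treated cells, between its controls (log2 fold change -0.05 ± 0.27, adjusted p = 0.905). It was lower after GC correction (log2 fold change -0.63 ± 0.18, adjusted p = 0.018) and against the 72-hour controls (log2 fold change -1.68 ± 0.27, adjusted p = 2.2e-04).

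The count of members that passed at 6 days moved with single libraries. Without control replicate 1, 6 members were lower, CDC20 among them at -0.50 on the log2 scale. Without control replicate 2, ANAPC7 (log2 fold change 0.53), CDC20 (0.61) and FZR1 (0.79) were higher and UBE2S was reduced to -0.51. More of all genes then passed as well, and the median gene was at 0.16, beside 0.10 with every library. Without treated replicate 1, 4 passed (UBE2S was lost), and without treated replicate 2 also 4 (CDC23 was lost). With the GC correction 5 members passed, all lower (CDC20 in place of CDC27), where 26.5% of the genes tested fell and 14.2% rose and the median gene was at -0.11. The change in response from 72 hours to 6 days, a test of the difference between both effects, passed for 0 members in edgeR and 0 in DESeq2, with 3 at an unadjusted p under 0.05 in each (after GC correction 0 passed in edgeR, with 1 at an unadjusted p under 0.05), while 1.08% of all genes passed. That outcome rested on 6-day control replicate 2, and without this library it changed for the members and over all genes alike. The median difference was then 0.11 over the members and 0.15 over all genes.

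**Figure D2:**
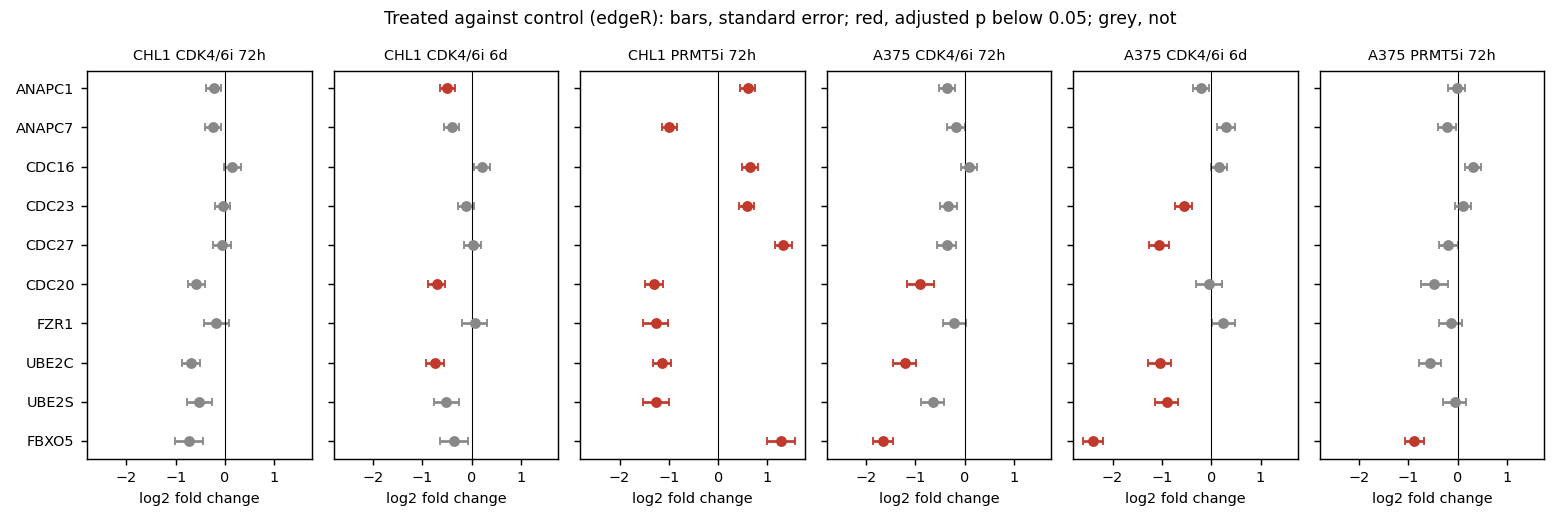
Log2 fold changes of treated against control for the 10 members in the 6 comparisons (points, edgeR estimates; bars, standard error; red, adjusted p below 0.05; grey, not). FBXO5 lies at -1.66 and -2.39 under CDK4/6i in A375 and at 1.27 under PRMT5i in CHL1 (0.30 with GC correction, not plotted), and in CHL1 after 72 hours of CDK4/6i no member is red.

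In CHL1, few members passed under CDK4/6 inhibition. At 72 hours none of the 10 passed in edgeR (0 members, with 3 at an unadjusted p under 0.05, and 2 in DESeq2), beside 2.72% of all genes down and 2.27% up. The members nearest to the threshold were UBE2C and CDC20. At 6 days CDC20, UBE2C and the scaffold ANAPC1 were lower than the 72-hour control, the only CHL1 control, so drug and time cannot be told apart there. These were 3 of 10 members, where 7.8% of all genes fell and 8.83% rose.

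UBE2C was at 29.7 and 24.6 CPM in the CHL1 controls, 16.7 and 17.1 CPM at 72 hours and 17.1 and 14.9 CPM at 6 days. All 4 treated libraries lay below both controls, with log2 fold changes of -0.69 ± 0.18 at 72 hours (adjusted p = 0.0501) and -0.75 ± 0.18 at 6 days (adjusted p = 0.016). CDC20 was at 121 and 106 CPM in the controls, 77.9 and 73.7 CPM at 72 hours and 73.6 and 63.5 CPM at 6 days. It too was lower in every treated library (log2 fold change -0.58 ± 0.18, adjusted p = 0.084, then -0.71 ± 0.18, adjusted p = 0.019).

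ANAPC1 (chr2:112369216-112642267, minus strand) went from 254 and 249 CPM to 210 and 221 CPM at 72 hours and 187 and 167 CPM at 6 days, when its log2 fold change was -0.49 ± 0.15 (adjusted p = 0.046). FBXO5 was at 84.7 and 66.7 CPM in the controls and at 42.4 and 48.8 CPM at 72 hours, below both, but did not pass (log2 fold change -0.73 ± 0.28, adjusted p = 0.16). At 6 days its replicates stood apart, at 78.7 and 37.8 CPM, and overlapped the controls (log2 fold change -0.36 ± 0.27, adjusted p = 0.42). UBE2S had log2 fold changes of -0.52 and -0.51 (adjusted p = 0.28 and 0.20), while FZR1, CDC16, CDC23 and CDC27 lay between -0.17 and 0.21 at both times.

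Whether members passed at 6 days in CHL1 rested on single libraries: without control replicate 1, control replicate 2 or treated replicate 2, none did. Fewer of all genes passed in those fits too. With each library left out in turn, log2 fold changes ranged from -0.88 to -0.61 for UBE2C, -0.84 to -0.60 for CDC20 and -0.59 to -0.40 for ANAPC1. FBXO5 was at -1.001 without treated replicate 1 and at 0.0841 without treated replicate 2. At 72 hours 4 members passed when only the control and treated libraries entered the fit (CDC20, FBXO5, UBE2C and UBE2S, all lower). Directly compared, 6 days and 72 hours of CDK4/6i differed for 0 members in edgeR and 0 in DESeq2, with 0 at an unadjusted p under 0.05, while 0.0145% of all genes passed.

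Under PRMT5 inhibition in CHL1, ANAPC1, CDC16, CDC23, CDC27 and FBXO5 rose and ANAPC7, CDC20, FZR1, UBE2C and UBE2S fell, though FZR1 turned direction with GC correction (from -1.27 to 0.07 on the log2 scale). All 10 members passed, 5 in each direction, in a comparison in which 26.4% of all genes rose and 27.6% fell. The members that rose were the 5 with the lowest GC content (34.2% to 44.8%) and those that fell the 5 with the highest (47.8% to 63.8%), and both treated libraries carried the GC trend. With the GC correction 6 members passed, 4 of them higher and 2 lower, where 35% of the genes tested rose, 9.35% fell and the median gene was at 0.23 on the log2 scale.

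CDC27 rose from 253 and 236 CPM in the controls to 620 and 588 CPM, a 2.50-fold higher level (log2 fold change 1.32 ± 0.18, adjusted p = 1.5e-04). After GC correction it was still higher, by 0.56 ± 0.13 on the log2 scale (adjusted p = 0.0049), beside 0.69 for CDC16 and 0.62 for ANAPC1. FBXO5 rose from 84.7 and 66.7 CPM to 189 and 172 CPM (log2 fold change 1.27 ± 0.28, adjusted p = 0.0021). Its treated libraries lay far above both controls, but after GC correction the log2 fold change was 0.30 ± 0.20 (adjusted p = 0.255), close to that of the median gene.

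The scaffold ANAPC1 rose from 254 and 249 CPM to 407 and 344 CPM, CDC16 (chr13:115000362-115038198, plus strand) from 60.7 and 56.0 CPM to 101.6 and 78.6 CPM, and CDC23 from 54.2 and 50.3 CPM to 81.4 and 72.4 CPM. In each of these 3 subunits both treated libraries lay above both controls, with log2 fold changes of 0.60 ± 0.15, 0.65 ± 0.17 and 0.58 ± 0.16 (adjusted p = 0.0058, 0.0057 and 0.0081). With the GC correction they were 0.62, 0.69 and 0.43, each still past the threshold, while the median gene moved from 0 to 0.23. Without control replicate 2 none of these 3 passed, and 7 members remained.

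ANAPC7 (chr12:110810705-110841535, minus strand), another TPR subunit, fell from 68.2 and 59.4 CPM to 34.1 and 29.3 CPM (log2 fold change -0.99 ± 0.16, adjusted p = 3.6e-04; -0.63 ± 0.13 after GC correction, adjusted p = 0.0026). UBE2C fell from 29.7 and 24.6 CPM to 12.8 and 11.4 CPM (log2 fold change -1.14 ± 0.18, adjusted p = 3.4e-04; -0.57 ± 0.16 after GC correction, adjusted p = 0.015). These were the members lower in both fits, and neither had a treated library within the control range.

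CDC20 fell from 121 and 106 CPM to 38.8 and 51.7 CPM (log2 fold change -1.31 ± 0.18, adjusted p = 1.7e-04), FZR1 (chr19:3506309-3538332, plus strand) from 56.9 and 51.5 CPM to 15.0 and 29.3 CPM (-1.27 ± 0.26, adjusted p = 0.0014) and UBE2S from 27.3 and 21.7 CPM to 7.88 and 12.3 CPM (-1.26 ± 0.26, adjusted p = 0.0016). In each the groups did not overlap, and in FZR1 and UBE2S the treated replicates themselves lay well apart. With the GC correction none of these 3 passed, and the log2 fold changes were -0.12 for CDC20, 0.07 for FZR1 and -0.21 for UBE2S, beside 0.23 for the median gene.

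**Figure D3:**
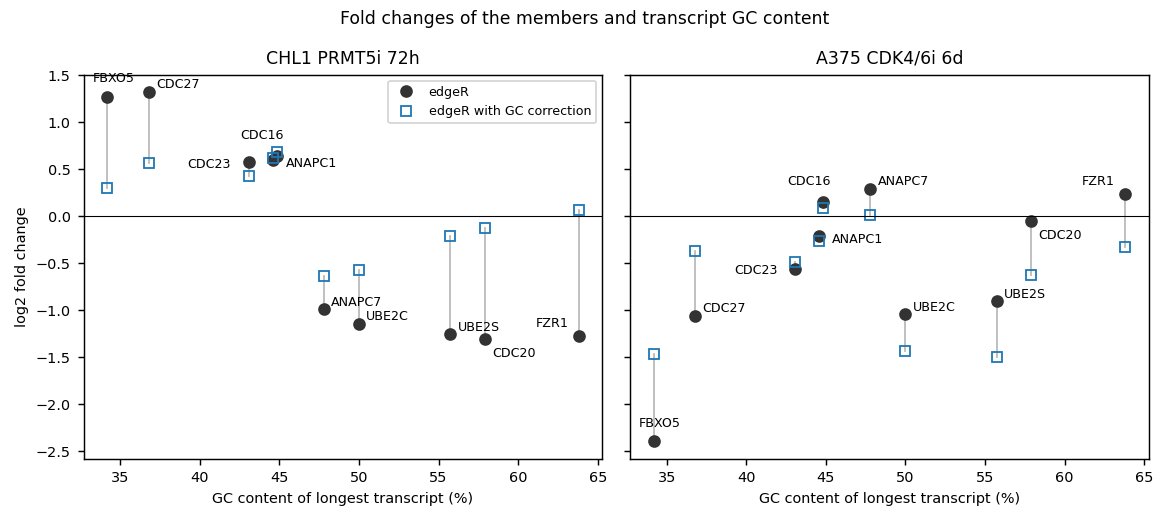
Log2 fold change of the 10 members against the GC content of the longest transcript, for PRMT5i in CHL1 and 6-day CDK4/6i in A375 (filled circles, edgeR; open squares, edgeR with GC correction; a grey line joins the values of a member). Under PRMT5i the correction moves FZR1 from -1.27 to 0.07 and leaves ANAPC1 near 0.60, and in A375 it moves FBXO5 from -2.39 to -1.47.

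PRMT5 inhibition in A375 lowered FBXO5 and left the other 9 members short of the threshold. FBXO5 went from 35.0 and 42.3 CPM to 22.4 and 20.0 CPM, a 1.84-fold lower level (log2 fold change -0.88 ± 0.19, adjusted p = 0.026; -0.70 ± 0.15 after GC correction), without overlap. It was 1 of 10 members, where 1.74% of all genes fell and 0.874% rose. UBE2C and CDC20 had log2 fold changes of -0.57 ± 0.23 (adjusted p = 0.22) and -0.47 ± 0.27 (adjusted p = 0.42), and the 5 subunits between -0.22 (ANAPC7) and 0.31 (CDC16). FBXO5 did not pass when any 1 of the 4 libraries was left out (adjusted p from 0.12 to 0.31), and with only the 6 libraries of 72 hours 4 members passed: CDC20, FBXO5 and UBE2C lower and CDC16 higher.

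Both inhibitors were given for 72 hours and could be compared with each other within a line. In CHL1 all 10 members differed, beside 57.8% of all genes, with FBXO5 4.02-fold higher under PRMT5i than under CDK4/6i (log2 difference 2.01 ± 0.28, adjusted p = 1.1e-04; 1.01 ± 0.21 after GC correction). CDC27 was 2.61-fold higher (log2 difference 1.39 ± 0.18; 0.58 ± 0.13 after GC correction), and ANAPC7 was lower under PRMT5i in both fits (-0.75 and -0.42). For CDC20, FZR1, UBE2C and UBE2S the direction depended on the correction: CDC20 and FZR1 went from -0.72 and -1.10 without it to 0.55 and 0.42 with it, both past the threshold, and UBE2C and UBE2S from -0.46 and -0.73 to 0.11 and 0.37, which did not pass. With RLE scaling, with DESeq2 or with only the groups compared 9 members passed, UBE2C being lost. With GC correction 8 passed, 7 higher under PRMT5i and 1 lower. In that fit 5160 of the 12881 genes tested were higher, 1976 were lower and the median gene was at 0.25 on the log2 scale. Leaving out single libraries of this comparison left 7 (CDK4/6i replicate 1), 8 (CDK4/6i replicate 2, PRMT5i replicate 1) or 9 (PRMT5i replicate 2) members past the threshold, the members lost being among CDC16, UBE2C and UBE2S. In A375 FBXO5 was the member that differed, 1.72-fold higher under PRMT5i (log2 difference 0.78 ± 0.20, adjusted p = 0.033), beside 5.45% of all genes. Without any 1 of the 4 libraries it did not pass, with a log2 difference between 0.69 and 0.87, and fewer of all genes passed too. With only the 6 libraries of 72 hours 6 members differed, all higher under PRMT5i (ANAPC1, CDC20, CDC23, FBXO5, UBE2C and UBE2S). Of all 20705 genes, 2364 were higher and 2207 lower in that fit.

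The balance of the coactivators was also read within each library, as the log2 ratio of CDC20 to FZR1 counts, which does not depend on scaling between libraries. In CHL1 it was 1.09 and 1.04 in the controls, 0.58 and 0.74 after 72 hours of CDK4/6i and 0.49 and 0.09 after 6 days. In A375 it was 1.48 and 1.68 in the 72-hour controls, 0.81 and 0.98 after CDK4/6i and 1.20 and 1.32 after PRMT5i. At 6 days it was 0.75 and 0.92 in the A375 controls and 0.59 and 0.57 in the treated libraries.

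The ratio was thus below its controls in every CDK4/6i library of both lines and in both A375 PRMT5i libraries, whereas the CHL1 PRMT5i libraries (1.37 and 0.82) lay on either side of their controls. The ratios are given as a description, with no test, and an exact two-sided permutation test of 2 against 2 cannot go below p = 0.333. The log2 ratio of UBE2C to UBE2S differed from control by -0.56 after 72 hours of CDK4/6i and by -0.52 after PRMT5i in A375, and by -0.23 after 6 days of CDK4/6i in CHL1, in each case without overlap of the groups. In the other 3 comparisons of that ratio the groups overlapped. FZR1 is richer in GC than CDC20, and UBE2S than UBE2C, so these ratios also carry any GC trend.

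**Figure D4:**
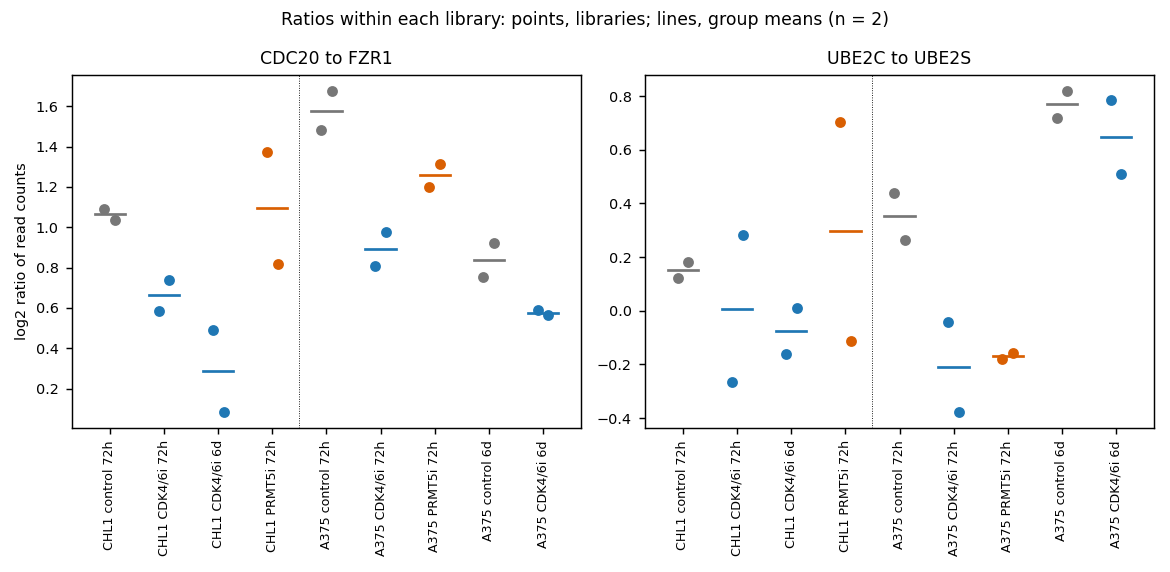
Log2 ratio of read counts within each library for CDC20 to FZR1 and for UBE2C to UBE2S, by group (points, libraries; lines, means of 2; grey, control; blue, CDK4/6i; orange, PRMT5i). CDC20 to FZR1 is between 0.09 and 0.98 in the 8 CDK4/6i libraries, each below both of its controls.

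The median log2 fold change of the 10 members was -0.36 and -0.39 under CDK4/6i in A375 at 72 hours and 6 days, -0.23 and -0.38 in CHL1, and under PRMT5i -0.17 in A375 and -0.21 in CHL1, where the medians over all genes lay between 0 and 0.10. With GC correction it was 0.18 for PRMT5i in CHL1, where the median of all genes was 0.23, and -0.43 for 6-day CDK4/6i in A375, where that of all genes was -0.11. The other genes around the complex were taken from lists of 9 further subunits, 8 spindle checkpoint genes, 15 APC/C substrates and 9 further regulators. Most substrates fell under CDK4/6i: 15 of 15 passed downwards at 72 hours in A375 (median log2 fold change -1.24, against 0.00 over all genes) and 14 of 15 at 6 days (median -0.87 against 0.10), and in CHL1 8 at 72 hours and 12 at 6 days, with none upwards. Cyclin A (CCNA2), the replication inhibitor geminin (GMNN), the hyaluronan receptor HMMR and the ribonucleotide reductase subunit RRM2 were the substrates named by rule. CCNA2 had log2 fold changes of -2.22 ± 0.19 in A375 and -1.24 ± 0.19 in CHL1 at 6 days, GMNN -2.07 and -0.96, HMMR -1.75 and -0.89, and RRM2 -1.25 and -0.97, each past the threshold. Under PRMT5i 3 substrates passed in A375, all lower, and in CHL1 5 were higher (CCNA2, GMNN, HMMR, NEK2 and SKP2) and 4 lower (AURKB, CDC6, PLK1 and TK1). After GC correction 2 substrates were higher and 2 lower under PRMT5i in CHL1, and 14 were lower in A375 at 6 days. The shares of all genes past the threshold, against which these and the following counts stand, were 26.4% up and 27.6% down for PRMT5i in CHL1 (35% and 9.35% after GC correction) and 21.8% up and 21.3% down for 6-day CDK4/6i in A375 (14.2% and 26.5%).

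Of the 9 further subunits, 0 passed under CDK4/6i at 72 hours in CHL1 by edgeR (1 at an unadjusted p under 0.05, 1 by DESeq2) and 1 in A375. That gene was ANAPC10, which helps to bind substrates: its log2 fold change was -0.67 ± 0.19 at 72 hours and -1.16 ± 0.19 at 6 days in A375, and -0.58 ± 0.16 at 6 days in CHL1. At 6 days in A375, ANAPC2 and ANAPC5 were higher (log2 fold changes 0.93 and 0.52). PRMT5i left 0 of these 9 past the threshold in A375 (1 at an unadjusted p under 0.05, 0 by DESeq2), and in CHL1 4 rose and 3 fell (4 and 1 after GC correction).

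The spindle checkpoint holds CDC20 back until chromosomes are attached, though not every gene listed for it acts in that direction. Of the 8 genes, BUB1B and BUB1 fell under CDK4/6i in both lines and at both times (log2 fold changes at 6 days -1.42 and -1.02 in A375 and -0.78 and -0.69 in CHL1). No other gene of this list passed in CHL1 under CDK4/6i. In A375 4 of 8 fell at 72 hours, and at 6 days 5 fell and 1 rose. Under PRMT5i 0 passed in A375 in edgeR (4 at an unadjusted p under 0.05, 1 by DESeq2), while in CHL1 5 rose and 2 fell. After GC correction 5 rose and 0 fell under PRMT5i in CHL1, and 0 rose and 5 fell in A375 at 6 days. Of the 9 further regulators, 1 fell under CDK4/6i in CHL1 at each time, 2 fell in A375 at 72 hours, and 6 fell and 1 rose in A375 at 6 days, while under PRMT5i 1 fell in A375 and 5 rose and 2 fell in CHL1. After GC correction, 4 regulators rose and 0 fell under PRMT5i in CHL1, and 0 rose and 5 fell of the 8 tested in A375 at 6 days. USP37, a deubiquitinase of cyclin A, fell in both lines at 6 days (log2 fold change -1.07 ± 0.17 in A375 and -0.67 ± 0.16 in CHL1). FBXO43, a relative of FBXO5 known from meiosis, was named after its values were seen: it fell in all 3 A375 comparisons (log2 fold changes -2.11, -1.56 and -1.61) and rose under PRMT5i in CHL1 (1.15).

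**Figure D5:**
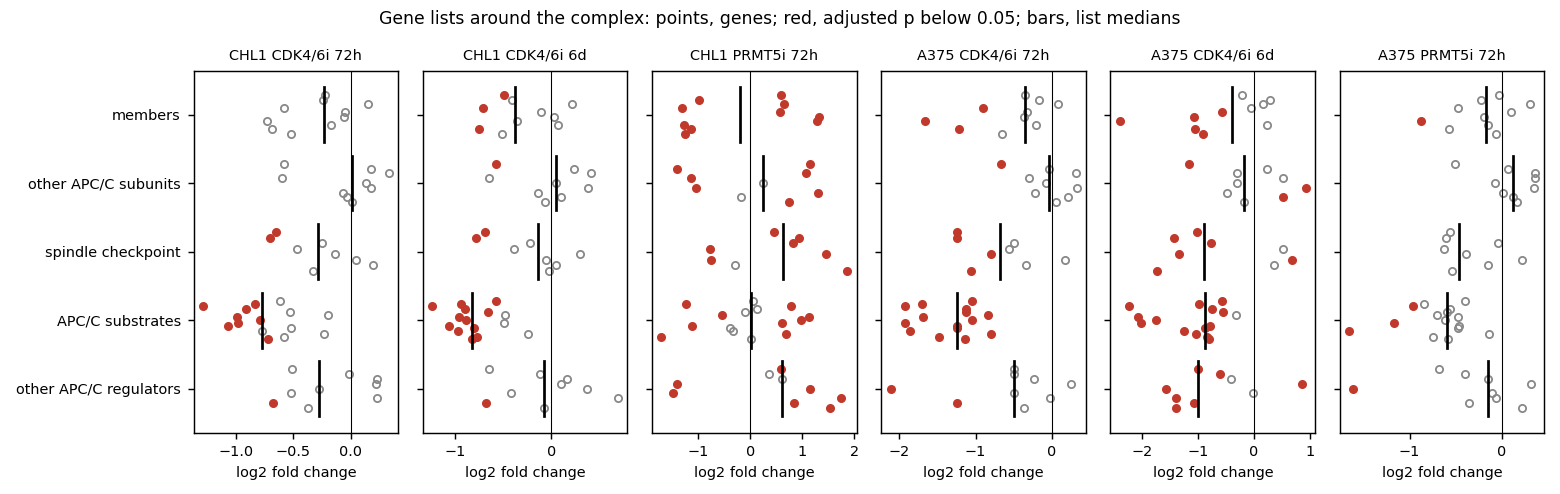
Log2 fold changes of the members and of the 4 lists around the complex in the 6 comparisons (points, genes; red, adjusted p below 0.05; open, not; bars, list medians). The substrates are all 15 red and below 0 at 72 hours of CDK4/6i in A375, while the medians of the further subunits lie between -0.17 and 0.24.

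Across the 18 libraries, with each line centred on its own mean, the genes whose log2(CPM + 1) followed FBXO5 most closely were RMI1, CDK1 and TMPO (Pearson r from 0.988 to 0.993), and those closest to CDC27 were BDP1, LATS1 and UBA6 (r from 0.990 to 0.991). Those closest to CDC20 were LMNB2, RCC1 and RPA1 (r from 0.972 to 0.977), and to UBE2C the histone genes HIST1H2BJ, HIST1H2BB and HIST1H4B (r from 0.975 to 0.982). Among the members, the closest pair was CDC20 with UBE2S (r = 0.912), followed by UBE2C with UBE2S (0.891) and CDC27 with FBXO5 (0.889), and the most opposed was CDC27 with FZR1 (-0.846). These are descriptions over libraries that share the treatments and the GC trend. The 6 genes closest to FBXO5 and CDC27 have a GC content of 35.6% to 40.9%, near that of these 2 members.

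The response of both lines was compared in a fit of all 18 libraries, as the CHL1 effect minus the A375 effect. The lines differ also in medium and, for the 72-hour groups, in library set, which cannot be told apart from the line. Under CDK4/6i at 72 hours 0 members differed in edgeR and 0 in DESeq2 (1 at an unadjusted p under 0.05 in each), beside 0.642% of all genes. At 6 days 3 members differed, beside 21.9% of all genes: FBXO5 by 2.02 ± 0.35 on the log2 scale (adjusted p = 9.1e-04), CDC27 by 1.07 ± 0.27 (adjusted p = 0.0098) and ANAPC7 by -0.72 ± 0.23 (adjusted p = 0.032). FBXO5 alone of the 3 passed after GC correction (0.83 ± 0.27, adjusted p = 0.038), and it did not pass when only the groups compared were fitted with that correction. Without 6-day CHL1 replicate 1 only FBXO5 passed (1 member), and without any other library of this comparison 2 to 4 members did. The controls of this comparison are unlike, a 72-hour control in CHL1 and a 6-day control in A375, so line and control time cannot be told apart in it. With the 72-hour control in both lines, an alternative chosen after seeing the data, 3 members differed, beside 16.3% of all genes: FBXO5 by 1.16 ± 0.35 (adjusted p = 0.031), UBE2C by 1.31 ± 0.30 (adjusted p = 0.0052) and UBE2S by 1.84 ± 0.37 (adjusted p = 0.0021). CDC27 (0.16 ± 0.27) and ANAPC7 (-0.19 ± 0.23) did not pass with it. In this alternative the A375 effect sets 6-day libraries against 72-hour controls of another library set, while the CHL1 libraries share a set. Line and library set cannot be told apart in it.

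Under PRMT5i 6 members differed between the lines, beside 40.9% of all genes. FBXO5 fell in A375 and rose in CHL1, where the rise did not pass with GC correction, a difference of 2.12 ± 0.36 on the log2 scale (adjusted p = 3.7e-04; 0.97 ± 0.27 after GC correction, adjusted p = 0.016). CDC27 differed by 1.49 ± 0.27 (0.57 ± 0.19 after correction), ANAPC1 by 0.59 ± 0.21 (0.52 ± 0.18) and ANAPC7 by -0.80 ± 0.23 (-0.52 ± 0.18), all still past the threshold with the correction. FZR1 (-1.16 ± 0.37) and UBE2S (-1.23 ± 0.37) did not pass with it, and FZR1 turned to 0.12. The count fell to 3 members without CHL1 PRMT5i replicate 1, A375 control replicate 1 or A375 PRMT5i replicate 2, and CDC27 and FBXO5 were among the members past the threshold in each fit that left out 1 library.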

How the data were processed

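RNA of 18 libraries (total RNA, TruSeq, poly-A selected, paired ends on a NextSeq500) was aligned by the authors to GRCh37 with HISAT2 2.0.4 and counted per gene with HTSeq, given as 0.11.2 in the submitters' processing notes. The study's methods give another HTSeq version with default settings. That default counts by strand, and whether the libraries keep strand is not given in the sources used here. The deposited table of 20705 genes is named as edgeR-normalised, but holds whole numbers throughout, with totals of 16213475 to 37424081 per library, and was treated as raw counts. Reads carry no molecular identifiers, so counts are not independent molecules.

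Counts were tested with edgeR 4.0.16 in R 4.3.3 (quasi-likelihood test, TMM scaling, prior count 0.125, 1 mean per group, 1 fit per cell line with 8 CHL1 or 10 A375 libraries, all 18 for differences between lines). P-values were adjusted by Benjamini-Hochberg over all genes, with a threshold of 0.05, and SE is the log2 fold change divided by the root of F. No gene was left out before testing. Coordinates, lengths and GC content came from GENCODE on GRCh37, and promoters from RefSeq on GRCh38.p14. Of the table's symbols, 15208 matched directly and 1149 through older symbols. The GC correction (loess, span 0.4) covered genes with a GC value and a mean of at least 1 CPM. The scripts were tested on simulated data.

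All 10 members were named. From each list, up to 4 genes past the threshold in both lines under 6-day CDK4/6i were named, with the largest change in A375, and for 4 members the 3 genes with the highest r. Members and lists were chosen with earlier results of these data known. Alternatives were DESeq2 1.42.0, RLE scaling, a 1 CPM filter, only the groups compared, GC correction, a replicate block, only the 72-hour A375 libraries, the 72-hour A375 control at 6 days and leaving out each library. Added after seeing the data were genes with a GC value without correction, a fit without the CHL1 PRMT5i libraries, only the groups compared with GC correction, and the 72-hour control in both lines for the 6-day line difference.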

Additional observations from a re-analysis of the deposited data

Results flagged for a closer look

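The effect of treatment differed between CHL1 and A375 for 9 member and treatment pairs in edgeR's test of the difference (CHL1 effect minus A375 effect, log2 scale). Under 6 days of CDK4/6i the differences were -0.72 for ANAPC7, 1.07 for CDC27 and 2.02 for FBXO5, with a 72-hour control in CHL1 and a 6-day control in A375. With the 72-hour control in both lines, which crosses library sets in A375 but not in CHL1, they were -0.19, 0.16 and 1.16, and FBXO5 alone of these 3 passed. Under PRMT5i they were 0.59 for ANAPC1, -0.80 for ANAPC7, 1.49 for CDC27, -1.16 for FZR1, -1.23 for UBE2S and 2.12 for FBXO5. The CHL1 PRMT5i and 6-day A375 control libraries carry the GC trend, and after GC correction the differences that passed were FBXO5 at 6 days (0.83) and, under PRMT5i, ANAPC1 (0.52), ANAPC7 (-0.52), CDC27 (0.57) and FBXO5 (0.97).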

How the results depend on the processing

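The counts of members past the threshold moved as follows, and those over all 20705 genes moved too. With only the groups compared, CDK4/6i at 72 hours passed 2031 genes up and 2171 down in CHL1 (469 and 563 in the main fit). In A375 it passed 3344 and 3596 (1288 and 1473). PRMT5i in A375 passed 663 and 1198 (181 and 360), and PRMT5i against CDK4/6i there 2245 and 2272 (490 and 639). For CDK4/6i at 72 hours in CHL1 (0 members) the count was 1 with the 1 CPM filter or with only genes that have a GC value, and 2 with DESeq2 or without the PRMT5i libraries. It was 3 with GC correction, 4 with only the groups compared and 5 with both. With GC correction 984 of the 12881 genes tested rose and 1156 fell, and with both 2012 and 2257 of 12900. PRMT5i in CHL1 (10) gave 6 with GC correction, in either set of groups. In A375, CDK4/6i at 72 hours (3) gave 5 with GC correction, 7 with only the groups compared or only the 72-hour libraries, and 6 with only the groups compared and GC correction, which at 6 days (5) gave 3. Of the genes tested, GC correction passed 1688 up and 1616 down of 13445 at 72 hours. With only the groups compared as well, 3257 and 2826 of 13241 passed at 72 hours, and 1002 and 2221 of 13454 at 6 days. PRMT5i in A375 (1) gave 2 with only the groups compared, with or without GC correction, and 4 with only the 72-hour libraries. PRMT5i against CDK4/6i in A375 (1) gave 3 with GC correction, 6 with only the groups compared or only the 72-hour libraries, and 5 with only the groups compared and GC correction. There GC correction passed 958 genes up and 975 down of 13445, and with only the groups compared as well 1826 and 2029 of 13256. The line difference at 72 hours (0) gave 1 with only the groups compared. The 6-day line difference (3) gave 1 with GC correction or only the groups compared and 0 with both (3 at an unadjusted p under 0.05, and DESeq2 gave 3 without correction). That of PRMT5i (6) gave 3 with both. Of the genes tested, GC correction passed 1820 up and 1141 down of 13692 in the 6-day line difference, and both settings 845 and 437 of 13716. In that of PRMT5i they passed 2428 and 1248 of 13692, and 3281 and 1033 of 13484.

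Replicates share a number but no stated culture. The deviations of same-numbered samples from their group means correlated at 0.22, 0.25 and 0.46 between the 3 pairs of 72-hour A375 groups, a hint of pairing from the data and not from the design, and between -0.34 and 0.44 in CHL1. With the replicate block, 8 members passed for CDK4/6i at 72 hours, 4 for PRMT5i and 7 for PRMT5i against CDK4/6i in A375 (6, 4 and 6 with GC correction as well), and in CHL1 0, 3 and 10 for CDK4/6i at 72 hours, at 6 days and PRMT5i (3, 5 and 6 with GC correction) and 9 for PRMT5i against CDK4/6i (8 with GC correction). Of all 20705 genes, the A375 block fits passed 4269 up and 4483 down for CDK4/6i at 72 hours and 2925 and 3188 for PRMT5i. For PRMT5i against CDK4/6i they passed 3800 and 3367. These A375 block fits held only the 6 libraries of 72 hours. Without the block, the same 6 libraries passed 3049 and 3375, 1374 and 1891, and 2364 and 2207 genes, and 7, 4 and 6 members. The fits of all A375 libraries without the block passed 1288 and 1473, 181 and 360, and 490 and 639 genes. The 6-day A375 libraries carry no number in the labels and were not blocked.

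Directions are listed for all members in the treated against control comparisons, and elsewhere only for members past the threshold in the main fit. Some of the members not listed turned too, such as CDC20 in the PRMT5i line difference (-0.87, and 0.24 with GC correction). The listed directions turned as follows, with GC correction, with it and only the groups compared, and with it and the replicate block. CDC23 in CHL1 at 72 hours was 0.0306, 0.0306 and 0.0313, CDC27 and FZR1 in CHL1 at 6 days -0.0685, -0.10 and -0.0706 and -0.16, -0.19 and -0.16, FZR1 under PRMT5i in CHL1 0.0675, 0.18 and 0.0632, and ANAPC1 under PRMT5i in A375 0.0204, 0.0160 and 0.0168. For PRMT5i against CDK4/6i in CHL1, CDC20 was 0.55, 0.52 and 0.55, FZR1 0.42 in each, UBE2C 0.11, 0.0657 and 0.10, and UBE2S 0.37, 0.34 and 0.40. The median gene was at 0.25, 0.22 and 0.25 there. In the first 2 settings FZR1 was -0.33 and -0.36 in A375 at 6 days, and 0.12 and 0.22 in the PRMT5i line difference. Against the 72-hour control, ANAPC7 and FZR1 in A375 at 6 days were -0.27 and -0.67. The cause was not tested.

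Leaving out 1 library at a time gave 0 to 4 members for CHL1 at 6 days, 7 to 10 for PRMT5i in CHL1, 2 in A375 at 72 hours, 4 to 7 at 6 days, 0 for PRMT5i in A375 and against CDK4/6i there, 0 to 6 for the change in response from 72 hours to 6 days, 7 to 9 for PRMT5i against CDK4/6i in CHL1, 1 to 4 and 3 to 7 for the line differences at 6 days and under PRMT5i, and 0 elsewhere. The lone sample left in a group was assumed to vary like the other groups. Counts over all genes moved in these fits too, and rose without 6-day A375 control replicate 2. Among the same listed members, directions turned in the range -0.10 to 0.0032 for CDC23 in CHL1 at 72 hours. In CHL1 at 6 days the ranges were -0.24 to 0.25 for CDC27, -0.0200 to 0.14 for FZR1 and -1.001 to 0.0841 for FBXO5. In A375 at 6 days they were -0.50 to 0.61 for CDC20 and -0.16 to 0.79 for FZR1. Under PRMT5i in A375 they were -0.11 to 0.0631 for ANAPC1 and -0.27 to 0.18 for UBE2S. The tally of single members took all 10 in the treated against control comparisons. In the other comparisons it took only members past the threshold in the main fit, so members that passed there only in another setting are not in it. Over these log2 fold changes in all settings that keep every library of a comparison, 614 kept direction and side of the threshold, 58 newly passed it, 31 no longer passed and 33 turned. With 2 replicates per group, small changes are not resolved.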
